A study of Mus musculus with 12 samples.

Results

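Inducible members of the Hsp70, Hsp90 and Hsp110 chaperone families were followed in mouse skin after a thermal injury. The 4 genes were Hspa1a, Hspa1b, Hsp90aa1 and Hsph1. A probe set is a group of short array probes designed against 1 transcript, and the members were all probe sets whose annotation names exactly 1 of these genes. That gave 4 of the 7275 probe sets in the table, 1 for each gene: 93875_at for Hspa1a, 100946_at for Hspa1b, 95282_at for Hsp90aa1 and 98111_at for Hsph1. RNA was taken from skin at 4 times after the injury (0 hours, 2 hours, 3 days and 14 days), with 3 samples at each time and 1 Affymetrix array for each of the 12 samples. All groups are mouse skin from the same injury model. The labels do not state strain, sex, age, or how the 0 hours skin was handled. Nor do they say whether replicates are separate animals, and the spread behind every p-value may therefore be technical.

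When proteins unfold in a heated cell, heat shock factor 1 leaves its complex with chaperones, forms trimers and binds heat shock elements in the promoters of chaperone genes. Hspa1a and Hspa1b are neighbouring genes on mouse chromosome 17 that encode the stress-inducible Hsp70, an ATP-driven chaperone that holds and refolds unfolded proteins. Hsp90aa1 encodes the inducible cytosolic Hsp90 alpha, which folds kinases and steroid receptors, and Hsph1 encodes an Hsp110 protein that exchanges the nucleotide of Hsp70. Skin meets heat directly, and keratinocytes are known to produce these proteins when warmed.

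Promoter sequences from RefSeq (build GRCm38.p6) were matched for 3 of the 4 genes, Hspa1a, Hspa1b and Hsph1. They are shown because the data bear on genes that moved together and because the Hsp70 pair is nearly identical. The 250 bases before the annotated start are printed for the pair, on the minus strand at chr17:34972157-34972406 for Hspa1a and chr17:34959239-34959488 for Hspa1b. For Hsph1, 30 bases around the motif are printed, on the minus strand at chr5:149636351-149636380. Capitals mark matches to GAANNTTC or TTCNNGAA, each of which reads the same on both strands and joins a pair of heat shock element units.
Hspa1a: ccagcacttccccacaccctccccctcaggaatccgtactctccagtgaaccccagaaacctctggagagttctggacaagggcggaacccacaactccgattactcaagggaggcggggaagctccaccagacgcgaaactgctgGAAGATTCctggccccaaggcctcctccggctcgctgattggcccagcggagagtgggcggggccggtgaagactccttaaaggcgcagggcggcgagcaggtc
Hspa1b: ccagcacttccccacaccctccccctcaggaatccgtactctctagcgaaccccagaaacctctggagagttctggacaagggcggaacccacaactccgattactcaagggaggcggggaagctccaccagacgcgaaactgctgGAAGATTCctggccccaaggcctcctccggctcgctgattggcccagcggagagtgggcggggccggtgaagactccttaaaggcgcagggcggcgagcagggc
Hsph1: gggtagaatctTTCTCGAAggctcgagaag

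The Hspa1a and Hspa1b promoters were 98.8% identical over 250 bases. They differed at 3 positions, written with the Hspa1a base first and counted from the 5′ end of the window: C44T, T47C and T249G. None of these positions lies in the capitals. The GAANNTTC match began 104 bases before the start in each of the pair, and the TTCNNGAA match of Hsph1 began 33 or 54 bases before its annotated starts. Of 27025 genes with a promoter sequence, 14.5% held either motif in the 250 bases before a start. The share was 12.2% of the 2830 tested genes that had a promoter sequence and 22.9% (25 of 109) of those called higher at 2 hours. Both shares include Hspa1a, Hspa1b and Hsph1 themselves. These letters are common, so a match describes the sequence and does not locate a bound site.

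At 2 hours all 4 genes stood far above 0 hours, and no array of the 4 overlapped between these times. Hspa1a had the largest change of all 4216 probe sets tested, Hspa1b the second largest, and Hsp90aa1 and Hsph1 ranked 5 and 7. By 3 days Hspa1a, Hspa1b and Hsph1 lay within the range of 0 hours or close to it, while Hsp90aa1 lay in part above it. The change over the 4 times was called for all 4 genes by the limma F-test (adjusted p of 8.5e-07 for Hspa1a, 2.0e-05 for Hspa1b, 0.00011 for Hsp90aa1 and 0.00035 for Hsph1), which called 21.4% of all tested probe sets.

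**Figure D1:**
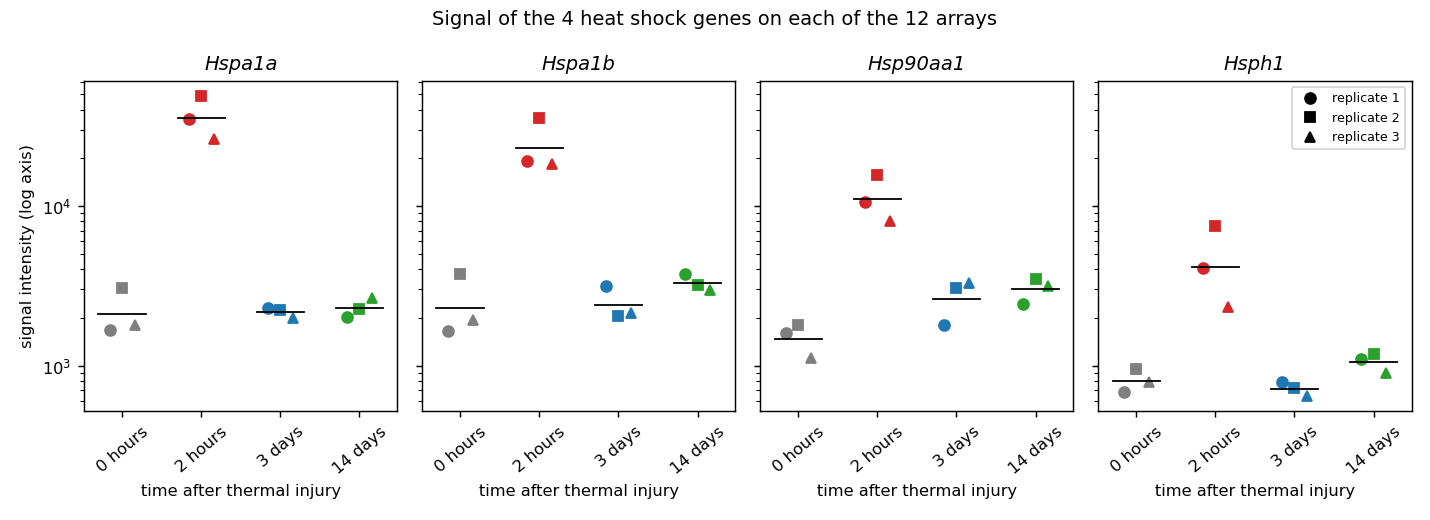
Signal intensity (log axis) of Hspa1a, Hspa1b, Hsp90aa1 and Hsph1 by time after thermal injury. Each point is 1 array, its shape gives the replicate number, and the line is the geometric mean of 3 arrays. The 3 arrays at 2 hours lie above all others in each panel, and heights are not comparable between panels because each gene has its own probes.

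The Hsp70 pair is described by signal intensity, a linear brightness whose scale differs between probe sets, so no level is set against that of another gene. Hspa1a had 1664.1, 3072.8 and 1787.4 signal units at 0 hours, 34793, 48761.7 and 26413.5 at 2 hours, 2293.2, 2234.8 and 1978 at 3 days, and 2006.9, 2264.1 and 2644.9 at 14 days. The 2 hours arrays stood apart, and the arrays of the other 3 times overlapped. At 2 hours the mean was 36656 ± 11290, against 2175 ± 780.2 at 0 hours (SD, n = 3 each). The rise was 17.0-fold, with a 95% interval of 11.5 to 25 (log2 change 4.09 ± 0.26 SE, limma adjusted p = 7.7e-07).

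Hspa1b had 1652, 3751.9 and 1926.4 signal units at 0 hours, 19174.9, 35586.3 and 18224.8 at 2 hours, 3157.4, 2046.4 and 2149.9 at 3 days, and 3738.6, 3205.3 and 2989.3 at 14 days. Its 2 hours arrays were again the highest, and 0 hours replicate 2 was as high as the arrays at 14 days. The rise at 2 hours was 10.1-fold, with a 95% interval of 6.34 to 16.2 (log2 change 3.34 ± 0.32, limma adjusted p = 3.4e-05). The transcripts of the pair are nearly identical, and the probe letters were not used here, so each probe set may read both genes and the share of each is uncertain.

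Hsp90aa1 had 1605.5, 1786.3 and 1118.5 signal units at 0 hours, 10606.5, 15713.7 and 8083.6 at 2 hours, 1783.8, 3078.1 and 3304 at 3 days, and 2432.6, 3509.2 and 3159.8 at 14 days. The arrays at 14 days were all above those at 0 hours, and at 3 days 1 of the 3 fell below the highest 0 hours array. At 2 hours it rose 7.49-fold, with a 95% interval of 4.86 to 11.5 (log2 change 2.90 ± 0.29, limma adjusted p = 5.2e-05).

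Hsph1 had 682, 957.8 and 786.4 signal units at 0 hours, 4056, 7494.2 and 2326.2 at 2 hours, 787.2, 723.4 and 642.6 at 3 days, and 1105.2, 1182.2 and 895.6 at 14 days. All 3 arrays at 2 hours lay above those of the other times, and those at 14 days lay above those at 3 days. Hsph1 had the widest spread of the 4 genes at 2 hours, where the highest array was 3.22 times the lowest, against 1.85 times for Hspa1a, 1.95 for Hspa1b and 1.94 for Hsp90aa1. The rise at 2 hours was 5.16-fold, with a 95% interval of 3.22 to 8.27 (log2 change 2.37 ± 0.32, limma adjusted p = 0.00082).

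All 4 members were thus called higher at 2 hours, where 3.80% of the tested probe sets were called higher, and their 2 hours arrays all lay above their 0 hours arrays, as 13.6% of the tested probe sets did. The 4 calls were kept under all 24 alternative settings, in which the log2 change ranged from 3.86 to 4.36 for Hspa1a, 3.03 to 3.70 for Hspa1b, 2.61 to 3.13 for Hsp90aa1 and 1.94 to 2.78 for Hsph1. At 2 hours replicate 2 was the highest and replicate 3 the lowest array for each of the 4 genes, and at 0 hours replicate 2 was the highest for each.

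Skin samples mix cell types, and in whole tissue a change in the cells present cannot be told apart from a change in RNA per cell. The signal ratio of the 3′ to the 5′ Gapdh control probe sets, a measure of RNA quality, had log2 values of 1.05 to 1.97 at 2 hours and 1.71 to 2.28 at 0 hours. With that ratio in the model the 4 calls were kept. Summed signal of 15 skeletal muscle markers was 271648 to 306012 at 2 hours and 302534 to 482122 at 0 hours, and 0 of the 15 were called by limma, with 3 at an unadjusted p under 0.05. Sums of 8 keratinocyte markers were 60620.7 to 66774.6 at 2 hours and 57072.1 to 71418.2 at 0 hours, with 0 called and 4 at an unadjusted p under 0.05. Sums of 9 fibroblast markers were 73846.6 to 80604.6 at 2 hours and 117061 to 133772 at 0 hours, with 3 of 8 tested markers, the collagen genes Col1a1, Col1a2 and Col3a1, called lower. The median log2 change of the 8 tested fibroblast markers was −0.04, so the lower sum does not describe the list as a whole. Sums of 5 hair follicle markers were 456.7 to 626 at 2 hours and 1155.1 to 5577.1 at 0 hours, with 1 of 4 tested markers, Krt71, called lower and 3 at an unadjusted p under 0.05. No marker of any list was at the intensity floor on all arrays. At 2 hours, however, Krt71, Krt25 and Krt27 were at the floor on every array, so the call of Krt71 compares with the floor. The part of these markers in the rise of the chaperones was not tested.

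**Figure D2:**
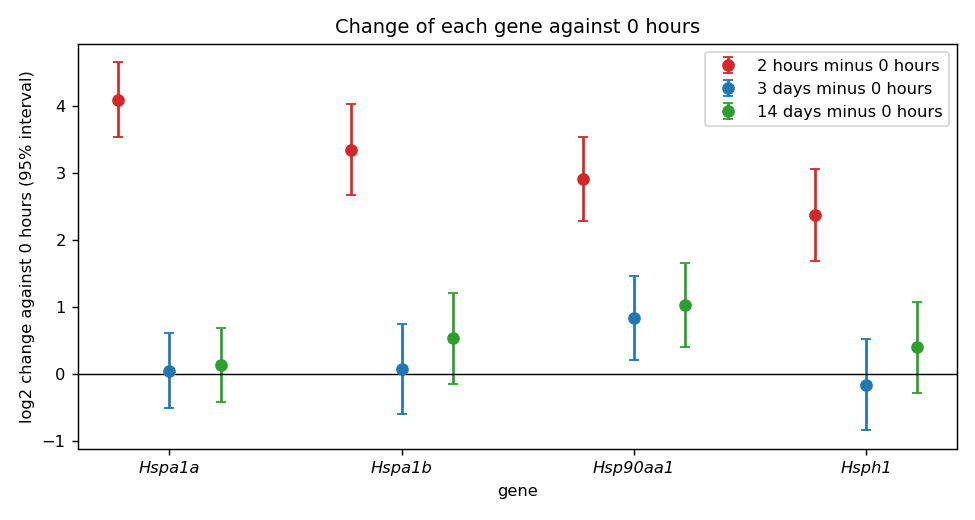
Log2 change of each gene against 0 hours from the limma fit, for 2 hours, 3 days and 14 days, with bars for the 95% interval. At 2 hours the changes run from 2.37 for Hsph1 to 4.09 for Hspa1a, and at 3 and 14 days only the Hsp90aa1 intervals lie above 0.

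Differences in log2 signal between Hspa1a and each of the other 3 genes changed over the 4 times, as did Hspa1b minus Hsph1. The other pairs did not pass the test. To compare the genes, log2 signal of one gene was subtracted from that of another on the same array, and the change of this difference with time was tested for 6 pairs by exact permutation of the 12 arrays over the 4 times, with p-values adjusted over the 6. The level of such a difference depends on the probes and has no meaning by itself, and probe sets can also differ in how faithfully signal follows the amount of RNA.

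Hspa1a minus Hsph1 was 3.10, 2.70 and 3.51 on the arrays at 2 hours, against 1.29, 1.68 and 1.19 at 0 hours. The fold rise of Hspa1a was 3.29 times that of Hsph1, and the difference changed over the 4 times (exact permutation, adjusted p = 0.0083). Hspa1a minus Hsp90aa1 was 1.71, 1.63 and 1.71 at 2 hours, against 0.05, 0.78 and 0.68 at 0 hours. The ratio of fold rises was 2.27, and the difference changed over the 4 times (exact permutation, adjusted p = 0.0083). Arrays at 2 hours agreed closely in this difference (SD 0.04), although their signals of either gene differed up to 1.94 times. Hspa1a minus Hspa1b was 0.86, 0.45 and 0.54 at 2 hours, against 0.01, −0.29 and −0.11 at 0 hours. The ratio of fold rises was 1.68, and the difference changed over the 4 times (exact permutation, adjusted p = 0.0083). Each probe set of the Hsp70 pair may read both genes, so this ratio compares the probe sets and cannot be assigned to the genes. In all 3 pairs the 2 hours values lay above every value of the other times.

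Hspa1b minus Hsph1 also changed with time (exact permutation, adjusted p = 0.027), with a mean of 2.49 ± 0.42 at 2 hours and 1.51 ± 0.40 at 0 hours (SD, n = 3 each). Hspa1b minus Hsp90aa1 and Hsp90aa1 minus Hsph1 did not pass (exact permutation, adjusted p = 0.12 for each). Their differences in log2 change at 2 hours were 0.44 and 0.54, and the values at 2 hours and 0 hours overlapped. With 2 hours and 0 hours alone the smallest exact permutation p is 0.1, the value reached by the 4 pairs that changed. Adjusted over the 6 pairs it was 0.15 for these, so a test of the 2 hours rise alone could not pass for any pair.

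**Figure D3:**
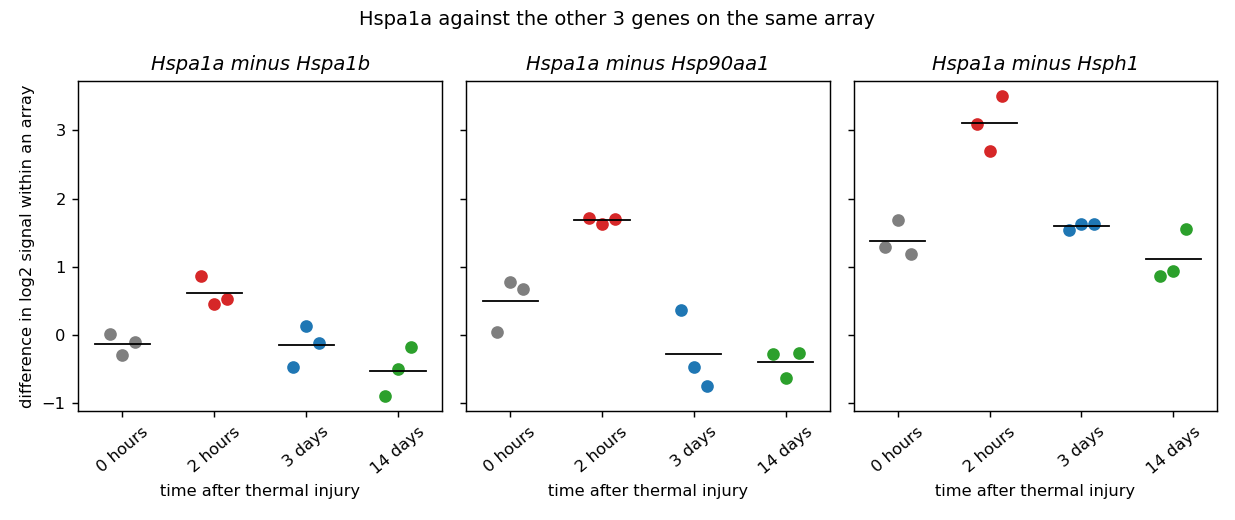
Difference in log2 signal between Hspa1a and each of the other 3 genes on the same array, by time after injury. Points are arrays and lines are means of 3; at 2 hours every point lies above those of the other times in each panel.

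By 3 days 98.8% of the log2 rise of Hspa1a had been lost, 97.8% of that of Hspa1b, 71.3% of that of Hsp90aa1 and 107% of that of Hsph1, whose mean log2 signal at 3 days was below that at 0 hours. At 3 days against 2 hours all 4 members were called lower, where 2.75% of tested probe sets were called lower, and all 3 arrays at 3 days lay below those at 2 hours for each gene, as for 18.0% of tested probe sets. These comparisons share the 2 hours arrays with those above and are not independent of them. Hspa1a was 16.4-fold lower (log2 change −4.04 ± 0.26, limma adjusted p = 9.1e-07), the largest fall of all tested probe sets, and Hspa1b was 9.64-fold lower (−3.27 ± 0.32). Hsph1 was 5.78-fold lower (−2.53 ± 0.32), and its call was lost with the Gapdh ratio as a covariate (limma adjusted p = 0.051). Hsp90aa1 was 4.20-fold lower (−2.07 ± 0.29).

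Against 0 hours, 0 of the 4 members were called higher at 3 days by limma, where 8.92% of tested probe sets were. Hsp90aa1 alone had an unadjusted limma p under 0.05 (0.012). The log2 change was 0.05 for Hspa1a (95% interval −0.51 to 0.61), 0.07 for Hspa1b (−0.60 to 0.75) and −0.16 for Hsph1 (−0.84 to 0.52). At their upper ends these intervals allow a signal up to 1.52 times that of 0 hours for Hspa1a, 1.68 times for Hspa1b and 1.43 times for Hsph1, and at their lower ends 0.703, 0.658 and 0.558 times. Hsp90aa1 gave 0.83 ± 0.29 (95% interval 0.21 to 1.46, limma adjusted p = 0.071), and without 3 days replicate 1, its lowest array at that time, the change was 1.11 (limma adjusted p = 0.021). Summed signal of 12 macrophage markers was 34416.9 to 52489.6 at 3 days and 11734.4 to 15176.3 at 0 hours, with 10 of 11 tested called higher, and that of the 15 muscle markers was 103421 to 229853 at 3 days and 302534 to 482122 at 0 hours, with 12 called lower. Sums of 5 neutrophil markers were 6619.1 to 25911.4 at 3 days and 582 to 1267.5 at 0 hours, with both tested markers, S100a8 and S100a9, called higher. Sums of the fibroblast markers were 74876 to 92139.4 at 3 days and 117061 to 133772 at 0 hours, with Col1a1 and Col1a2 called lower and Fbln1 called higher. Although this sum was lower, the median log2 change of the 8 tested fibroblast markers was 0.19. Sums of the hair follicle markers were 528 to 641.3 at 3 days and 1155.1 to 5577.1 at 0 hours, with Krt71 called lower. S100a9 at 0 hours and Krt71 at 3 days were at the intensity floor on every array, so these calls compare with the floor. The Gapdh log2 ratio was 0.05 to 1.05 at 3 days, and with it as a covariate the change of Hsp90aa1 was −0.15 ± 0.51. This range did not overlap that at 0 hours, so the fit cannot tell RNA quality from time. The part of these cell types was not tested.

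At 14 days Hsp90aa1 was the member that was called higher than at 0 hours, 1 of 4, where 7.47% of tested probe sets were called higher. It averaged 3034 ± 549.2 signal units at 14 days and 1503 ± 345.4 at 0 hours (SD, n = 3 each), a 2.03-fold rise with a 95% interval of 1.32 to 3.13 (log2 change 1.02 ± 0.29, limma adjusted p = 0.036). Its arrays did not overlap between these times, as for 18.0% of tested probe sets in the same direction. The other 3 were not called, with log2 changes of 0.13 for Hspa1a, 0.53 for Hspa1b (95% interval −0.15 to 1.20) and 0.40 for Hsph1 (−0.28 to 1.07). Whether the change of Hsp90aa1 differed from theirs was not tested on its own.

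With each array left out the log2 change of Hsp90aa1 at 14 days was 0.82 to 1.18 (1.02 with all arrays), but the call did not hold without 0 hours replicate 1 (limma adjusted p = 0.071) or replicate 3 (0.10), and without 14 days replicate 1 (0.061), replicate 2 (0.12) or replicate 3 (0.088). RNA quality moved with it: the Gapdh log2 ratio was 0.16 to 0.30 at 14 days and 1.71 to 2.28 at 0 hours, and with that ratio in the model the change was −0.17 ± 0.60 (limma adjusted p = 0.99). The ratio did not overlap between these times, so this fit cannot tell RNA quality from time. Cell type markers moved as well. Summed signal was 147200 to 211663 at 14 days and 302534 to 482122 at 0 hours for the 15 muscle markers, of which 10 were called lower, and 91486.6 to 121301 at 14 days and 57072.1 to 71418.2 at 0 hours for the 8 keratinocyte markers, of which 4 were called higher. For 5 hair follicle markers it was 14142.6 to 38368.8 at 14 days and 1155.1 to 5577.1 at 0 hours, with 4 of 4 tested markers called higher. Macrophage sums were 19233.7 to 20906.3 at 14 days and 11734.4 to 15176.3 at 0 hours, with only Ctss called higher. Neutrophil sums were 1523.7 to 9073.2 and 582 to 1267.5, with none called. Fibroblast sums were 89101.4 to 114725 and 117061 to 133772, with only Fbln1 called, higher, and a median log2 change of 0.11. The part of these cell types was not tested.

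From 3 to 14 days none of the members was called by limma, where 1.23% of tested probe sets were called higher and 2.04% lower, and none had an unadjusted p under 0.05. For Hsph1 the fold at 14 days over 3 days was 1.47 (0.56 ± 0.32 on the log2 scale, limma adjusted p = 0.60), and its arrays did not overlap between these times, as for 10.9% of tested probe sets. At 14 days against 2 hours all 4 were called lower, where 5.62% of tested probe sets were, and none overlapped, as for 20.0%. Hspa1a was 15.5-fold lower, Hspa1b 7.03-fold, Hsph1 3.92-fold and Hsp90aa1 3.68-fold. With the Gapdh ratio as a covariate the calls of Hspa1b (limma adjusted p = 0.10) and Hsph1 (0.21) were lost.

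The same 12 arrays were read for 82 other genes of the chaperone system, of which 57 had a probe set naming 1 gene and 41 were tested, each by its brightest probe set. At 2 hours 7 of the 41 rose and none fell, where 3.80% of all tested probe sets were called higher and 1.71% lower. The other 34 were not called. The median over the 41 was 0.41 on the log2 scale, beside 0.05 for all tested probe sets. None of the 41 changed by as much as Hsph1, the member with the smallest rise.

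Partners of Hsp70 were among the 7. Dnajb1, the J-domain protein that hands unfolded clients to Hsp70, rose 4.21-fold (2.08 ± 0.37 on the log2 scale, limma adjusted p = 0.0049), and its relative Dnaja1 rose 2.60-fold (1.38 ± 0.28, limma adjusted p = 0.012); the other 7 J-domain genes were not called. Hspa8, the Hsp70 that cells make without stress, rose 2.27-fold (log2 change 1.18 ± 0.20, limma adjusted p = 0.0034), while its relatives Hspa4, Hspa5 and Hspa9 were not called. Of 7 nucleotide exchange and adaptor co-chaperones 0 were called and 1 had an unadjusted p under 0.05, with a median log2 change of 0.27. In that list Bag3, which links Hsp70 to small heat shock proteins, gave 0.83 ± 0.26 (limma adjusted p = 0.077) by its brighter probe set and 1.71 (limma adjusted p = 0.019) by the other, so its probe sets disagree on the call.

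Among 7 co-chaperones of Hsp90, Fkbp5, which also responds to glucocorticoids, rose 3.11-fold (1.64 ± 0.28, limma adjusted p = 0.0034). Hsp90b1, the Hsp90 of the endoplasmic reticulum and the only other Hsp90 tested, gave 0.42 and was not called (limma adjusted p = 0.18). Of 9 genes in the list of chaperonins and the collagen chaperone Serpinh1, 3 rose: the mitochondrial partners Hspe1 (1.44 ± 0.29 on the log2 scale, limma adjusted p = 0.012) and Hspd1 (1.38 ± 0.35, 0.036) and the cytosolic subunit Cct8 (0.83 ± 0.19, 0.024). None of the 3 small heat shock proteins tested, Hspb2, Hspb8 and Cryab, was called or had an unadjusted p under 0.05, with a median log2 change of −0.02, nor did Hsbp1, which binds heat shock factor 1 (0.44 ± 0.35).

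The calls of Hspa8, Dnaja1, Dnajb1 and Fkbp5 were kept whichever array was left out. Leaving out 2 hours replicate 2 ended that of Hspe1 (limma adjusted p = 0.055). That of Cct8 was lost without 0 hours replicate 1 (0.069) or 3 (0.055) and without 2 hours replicate 1 (0.065), 2 (0.078) or 3 (0.077). That of Hspd1 was lost without 0 hours replicate 1 (0.071) or 3 (0.13), 2 hours replicate 1 (0.10) or 2 (0.14), 3 days replicate 2 (0.054) or 14 days replicate 2 (0.051), and its adjusted p lay just under the threshold without 14 days replicate 3. The count of 7 was 13 without 0 hours replicate 2 and 4 without 2 hours replicate 2.

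**Figure D4:**
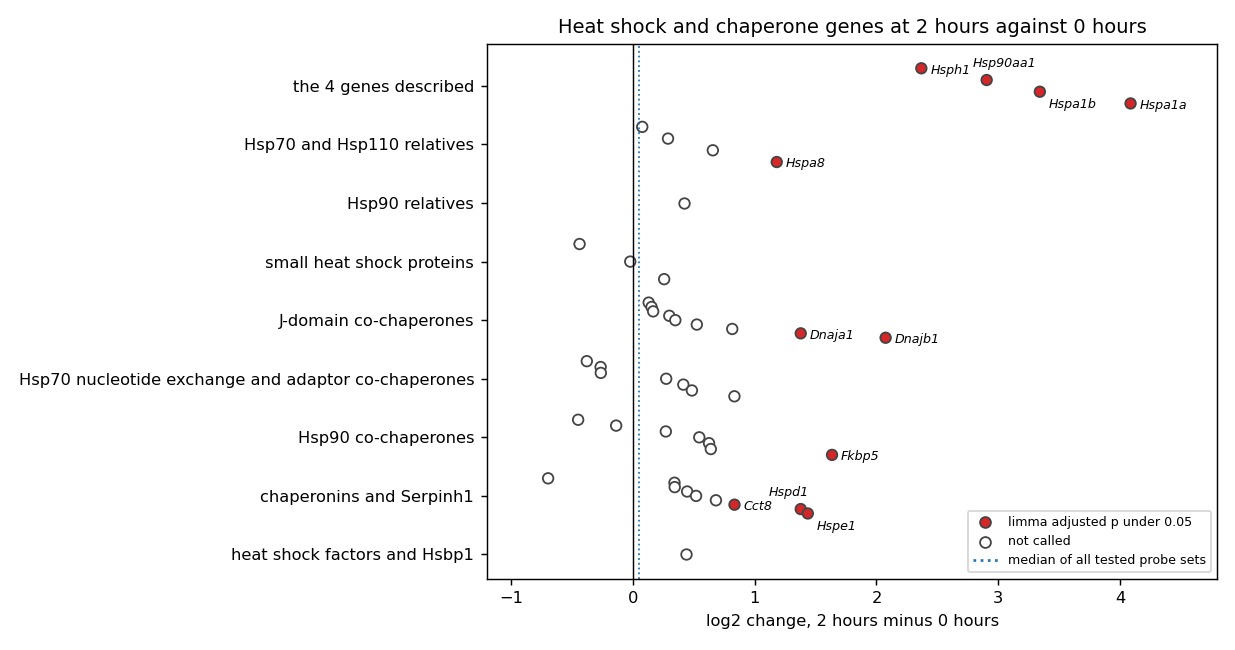
Log2 change at 2 hours against 0 hours for the 4 genes and for 41 other chaperone genes grouped by role. Red points were called at a limma adjusted p under 0.05, open points were not, and the dotted line is the median of all tested probe sets (0.05). The 4 genes lie between 2.37 and 4.09, above every other chaperone shown.

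Genes with the most similar pattern were found by Pearson correlation of log2 signal over the 12 arrays, among tested probe sets that name 1 gene, leaving out the 4 members themselves, and the 5 nearest other genes of each member are named. The 2 hours arrays stand apart from the other 9, so the measure mainly ranks genes by a rise at 2 hours with little change elsewhere, and it is given as a description. For Hspa1a they were Fgl2 (r = 0.94), Lrrc8a (0.93), Dnaja1, Pno1 and the stress transcription factor Atf3 (0.90 each). For Hspa1b they were Hspe1 (0.92), Dnaja1 (0.91), Gtpbp4, Lrrc8a and Fgl2 (0.90 each).

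For Hsph1 all but one of these 5 genes were chaperones or co-chaperones: Dnaja1 and Bag3 (0.92 each), Dnajb1 (0.91), Hspe1 (0.89) and the ubiquitin-conjugating enzyme Ube2d3 (0.88). For Hsp90aa1 the nearest were Atf3 (0.95, by a different probe set from that above), Hspa8 (0.94), Dnajb1 (0.92) and the metallothioneins Mt2 (0.92) and Mt1 (0.91), which bind metal ions. This probe set of Atf3 went down to 153.1 signal units at 0 hours, under the intensity floor. It gave log2 changes of 0.41 at 3 days and 0.68 at 14 days against 0 hours, where the other gave 0.01 and −0.43. None of these was called. Fgl2, a fibrinogen-like protein, had 1596.4 to 2486.9 signal units at 2 hours and 525.8 to 652.4 at 0 hours, a 3.30-fold rise (1.72 ± 0.25 on the log2 scale, limma adjusted p = 0.0012). Mt1 had 6849 to 11819.3 signal units at 3 days and 2575.3 to 3529.1 at 0 hours (log2 change 1.55 ± 0.23, limma adjusted p = 0.0007), and Hspa8 had 4198.9 to 4765.8 at 3 days and 2492.5 to 3350.6 at 0 hours (0.55 ± 0.20, limma adjusted p = 0.078). Like Hsp90aa1, all 5 genes nearest to it had mean log2 signals at 3 days above those at 0 hours. They were picked by correlation with Hsp90aa1 over the same arrays, so this shared sign follows in part from the selection. Of the 5, Mt1 and Mt2 (0.98 ± 0.20, limma adjusted p = 0.0063) were called. Most genes near the other members, among them Fgl2, Dnaja1, Gtpbp4 and Hspe1 (0.33, not called), shared this sign. Lrrc8a, Pno1, Bag3 and Ube2d3 did not. Pno1, Ube2d3 and, by the probe set used here, Bag3 were not called at 2 hours (limma adjusted p = 0.13, 0.085 and 0.077). Leaving out 0 hours replicate 1 ended the 2 hours calls of Lrrc8a (limma adjusted p = 0.069) and Gtpbp4 (0.055), as did leaving out 2 hours replicate 2 (0.062 and 0.077) and replicate 3 (0.12 and 0.11). For Gtpbp4 so did 0 hours replicate 3 (0.074) and 2 hours replicate 1 (0.056).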

How the data were processed

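For each of 12 arrays of mouse skin the deposited table gives 1 linear intensity for a probe set, with no detection calls. The sources used here do not state how the authors computed and scaled it. Array medians were 448.4 to 496.4, and the deposited intensity was used without rescaling. A floor at the 25th percentile of all values (225.375) was applied before the log2 step. Tests covered the 4216 probe sets, controls aside (27), with 3 or more arrays above the median of all values (475.55). All 4 members exceeded it on all 12 arrays.

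Samples were grouped by the time in their labels. One limma 3.58.1 fit (R 4.3.3) with 1 coefficient per time, 8 residual and 6.45 prior degrees of freedom gave 6 comparisons, with Benjamini-Hochberg adjustment over all tested probe sets and calls under 0.05. The procedure was tested on simulated data. Gene names came from the platform annotation, in which 6551 probe sets name 1 gene, 251 several and 446 none; symbols checked by Entrez ID against RefSeq (GRCm38.p6) needed 0 updates. Python 3.11.15, pandas 2.3.3 and matplotlib 3.10.9 made tables and figures.

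The members, gene lists, tests and alternatives were chosen with earlier results of these data known. Named genes are all members, the chaperone list genes called against 0 hours, and the 5 genes most similar to each member by correlation. Calls of the chaperone lists against 2 hours were counted and not listed by gene. The other probe sets of Bag3 and Cct3, and list members that were not called, were picked with their values in view. The fit was repeated with quantile or median scaling, with the floor at the 10th or 40th percentile, without the filter or with a stricter one, with trended and robust variance, with array weights, with a replicate block, with the Gapdh ratio as a covariate, on only the 2 times compared, with 1 probe set per gene, and with each array left out. Replicate numbers were tested for pairing, and 2 of the 18 pairs of arrays that share a number had deviations correlated above 0.1, so the numbers were not taken to pair arrays. The number of arrays limits the precision.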

Additional observations from a re-analysis of the deposited data

How the results depend on the processing

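The counts of members called at 2 hours against 0 hours, and at 3 days against 2 hours (4 each), were unchanged under all 24 alternatives, except for 3 at 3 days against 2 hours with the Gapdh ratio as a covariate. The count at 14 days against 0 hours, which is Hsp90aa1 alone, was 0 with no filter, with array weights, with the Gapdh ratio as a covariate and with only the 2 times compared, and 0 to 1 with each array left out. The count at 3 days against 0 hours was 0 to 1 with each array left out. At 14 days against 2 hours the count was 2 with the Gapdh ratio as a covariate. The ratio at 3 days and 14 days did not overlap that at 0 hours or 2 hours, so the covariate is tied to time in these comparisons. The count of other chaperones called higher at 2 hours (7) was 3 with no filter, 1 with only the 2 times compared and 4 to 13 with each array left out; this count and the other named genes were added to the alternatives after the data were seen. Arrays sharing a replicate number were not paired, and with the replicate block the log2 change of Hspa1a at 2 hours was 4.09 and that of Hsp90aa1 at 14 days 1.02 (limma adjusted p = 0.030).

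Changes that were not called turned sign as follows. At 3 days against 0 hours quantile normalization gave −0.033 for Hspa1a and −0.016 for Hspa1b, array weights gave −0.057 for Hspa1b and the Gapdh ratio as a covariate gave −0.15 for Hsp90aa1. With each array left out the range was −0.11 to 0.33 for Hspa1a and −0.16 to 0.43 for Hspa1b. At 14 days against 0 hours leaving arrays out gave −0.033 to 0.41 for Hspa1a. The called change of Hsp90aa1 there was −0.17 with the Gapdh ratio as a covariate. At 14 days against 3 days the covariate gave −0.018 for Hsp90aa1, and leaving arrays out gave −0.089 to 0.36 for Hsp90aa1 and −0.022 to 0.18 for Hspa1a. The causes were not tested. No member was at the floor on any array, so no fold is a bound set by the floor. Whether signal levels off at high intensity was not tested.

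Over all tested probe sets the count called at 2 hours was 232, and 71 with only the 2 times compared and 391 without 0 hours replicate 2. At 3 days it was 569 and at 14 days 473, and 2 at each with the Gapdh ratio as a covariate, 212 at 3 days without 3 days replicate 3 and 157 at 14 days without 14 days replicate 1. Against 2 hours it was 362 at 3 days and 538 at 14 days, and 10 and 31 with the covariate, 1115 and 1044 with array weights, 138 without 3 days replicate 3 and 230 without 14 days replicate 1. At 14 days against 3 days it was 138, and 65 without 14 days replicate 2 and 427 with array weights. The background shares move with these counts.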

Other observations

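Of 41 other chaperone genes 1 rose and none fell at 3 days against 0 hours, where 8.92% of tested probe sets were called higher, and 3 rose and none fell at 14 days, where 7.47% were. Hspa5, the Hsp70 of the endoplasmic reticulum, was 1.75-fold higher at 3 days than at 0 hours (log2 change 0.81 ± 0.20, limma adjusted p = 0.019) and 1.77-fold higher at 14 days (0.82 ± 0.20, limma adjusted p = 0.021), and at 2 hours it gave 0.66 ± 0.20 (limma adjusted p = 0.076). At 3 days against 2 hours its log2 change was 0.15 (limma adjusted p = 0.69). The 3 days call did not hold without 0 hours replicate 1 (limma adjusted p = 0.055) or 3 days replicate 3 (0.093), and that at 14 days without 0 hours replicate 1 (0.064) or 14 days replicate 1 (0.090) or 2 (0.072). The others called at 14 days were the chaperonin subunit Cct3 and the J-domain protein Dnajc7. Cct3 gave 0.86 ± 0.20 by its brightest probe set (limma adjusted p = 0.015), a call lost without 0 hours replicate 1 (0.061) or 14 days replicate 1 (0.063) or 2 (0.060), and by its other probe sets 1.13 (0.010) and 0.23 (0.62). Dnajc7 gave 0.62 ± 0.19 (limma adjusted p = 0.047), and with single arrays left out its call was lost in 10 of the 12 cases. With the Gapdh ratio as a covariate the changes of Hspa5 were 0.33 at 3 days and 0.24 at 14 days, neither called. Against 2 hours, 8 of these 41 chaperone genes were called lower at 3 days and none higher. Of all tested probe sets 2.75% were called lower and 5.83% higher there. At 14 days against 2 hours 8 were called lower and 2 higher, beside 5.62% and 7.14%. These comparisons share the 2 hours arrays with the rise and are not independent of it. With the covariate none of these calls was kept.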
